A study of Mus musculus with 9 samples.

Results

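The genes studied here handle bile acids in hepatocytes and were 10 of the 27179 genes in the deposited table of livers from aged mice. They were picked by symbol: the sterol hydroxylases Cyp7a1, Cyp8b1, Cyp27a1 and Cyp7b1, the amidation enzymes Slc27a5 and Baat, the uptake carrier Slc10a1 (NTCP), the export pump Abcb11 (BSEP), the bile acid receptor Nr1h4 (FXR) and the repressor Nr0b2 (SHP). Each symbol matched 1 row, and all 10 exceeded the minimum level for testing, a mean of 10 normalized counts over the libraries. The mice were C57BL/6J, labelled WT, on normal chow. At 17 months of age all of them received, by retro-orbital injection, AAV8 that expresses saCas9 from TBG, a promoter active in hepatocytes, together with a U6-driven guide RNA. The guide was directed at the Rosa26 locus in the control group (sgRosa26, n = 4) and at Ccnd1, the gene for cyclin D1, in the other group (sgCcnd1, n = 5). Controls therefore also carried the vector and the nuclease. Pieces of the m-lobe were frozen 3 weeks later and their poly(A) RNA was sequenced in bulk. Libraries are named by letter in column order, the controls A to D and the edited group E to I. A level in normalized counts is the number of reads of a gene divided by 1 size factor per library.

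Bile acids are made from cholesterol in hepatocytes. In the classic pathway CYP7A1 performs the first and rate-limiting step, and CYP8B1 adds the 12alpha-hydroxyl group that leads to cholic acid. In the alternative pathway CYP27A1 oxidizes the side chain and CYP7B1 hydroxylates the resulting oxysterols. Bile acid-CoA esters formed by SLC27A5 are joined to taurine or glycine by BAAT, exported into bile by ABCB11 and recovered from portal blood by NTCP. Bile acids activate FXR, which induces the genes for SHP and BSEP, and SHP in turn restrains Cyp7a1 and Cyp8b1 by acting on receptors such as LRH-1 (Nr5a2) and HNF4alpha.

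The stretches upstream of Abcb11 and Nr0b2 are shown because both genes are textbook FXR targets and each stood out in a different measure. Abcb11 had the smallest limma p between the groups among the 10 genes, and Nr0b2 the widest spread between animals within a group. No difference between these genes was tested. RefSeq promoters on GRCm38.p6 were found for 6 of the 10 genes, in 7 windows of which the 250 bases before the start were searched. Capitals in the Abcb11 sequence (chr2:69342617-69342866, minus strand) mark GNNCA and TGNNC with 1 base between them, a loose form of the IR1 inverted repeat bound by FXR with RXR. Capitals in the Nr0b2 sequence (chr4:133553126-133553375, plus strand) mark TCAAGG, the core of the half-site bound by LRH-1.
Abcb11: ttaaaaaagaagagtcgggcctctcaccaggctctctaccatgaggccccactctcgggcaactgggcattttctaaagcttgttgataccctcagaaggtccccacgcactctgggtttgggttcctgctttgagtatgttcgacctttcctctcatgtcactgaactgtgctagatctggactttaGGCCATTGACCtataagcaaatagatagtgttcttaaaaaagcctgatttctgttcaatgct
Nr0b2: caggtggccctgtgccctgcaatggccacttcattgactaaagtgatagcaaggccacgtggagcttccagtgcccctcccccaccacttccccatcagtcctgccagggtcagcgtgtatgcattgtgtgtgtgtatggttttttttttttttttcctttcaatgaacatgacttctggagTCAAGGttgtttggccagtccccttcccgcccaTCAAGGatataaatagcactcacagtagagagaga

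The repeat lies 62 to 52 bases before the Abcb11 start. On both strands it occurs in 6.60% of all 32851 windows of this length and in 1 of the 7 windows of the bile acid genes. It overlaps the half-site letters AGGTCA, found there on the opposite strand at 56 to 51 bases; these letters occur in 3 of the 7 windows, those of Nr1h4 and Slc10a1 included, and in 14.0% of all windows. The core TCAAGG occurs in the Nr0b2 window at 68 to 63 and at 35 to 30 bases before the start, and in 12.5% of all windows. Its longer form TCAAGGNCA was in 0 of the 7 windows and in 1.39% of all. The letters TATAAA followed the second core in Nr0b2 at 28 to 23 bases, stood 31 to 26 bases before the start of Cyp8b1, and lay on the opposite strand at 128 to 123 bases in a window of Slc10a1. They occur in 3 of the 7 windows and in 12.4% of all windows. These are matches of letters, and no binding was measured.

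Depth ranged from 10.8 to 20.2 M reads (M, mega), and each of the 10 genes had at least 171 reads in every library. Ccnd1, the targeted gene, stood at 744 ± 109.8 normalized counts in sgRosa26 (SD, n = 4) and at 362 ± 40.6 in sgCcnd1 (SD, n = 5), which is -1.03 on the log2 scale (limma adjusted p = 0.0116). The adjusted p was 0.0559 to 0.0852 when B, D, F, H or I was left out, so that call was lost in 5 of 9 such fits, while the log2 fold change stayed between -1.11 and -0.96. Hepatocyte markers (Alb, Ttr, Apoa1, Trf, Serpina1a, Fgb, Ahsg) were abundant in all libraries, at a summed 1857914 to 2351416 normalized counts. Y-linked transcripts (Ddx3y, Eif2s3y, Kdm5d and Uty) summed to 2.00 normalized counts in sgCcnd1 library H and to at least 1619 in the other 8.

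Levels of different genes were compared per kilobase of the longest annotated transcript. Slc10a1 was the highest of the 10, at 7016 ± 970.1 normalized counts per kilobase (SD, n = 9), ahead of Slc27a5 at 5979 ± 819 in 8 of 9 libraries. Cyp27a1 followed at 4169.6 ± 421, below Slc27a5 in 9 of 9 libraries. Cyp8b1 (2661 ± 582), Baat (2323 ± 127) and Abcb11 (2127 ± 423) lay close together, and the order of Cyp8b1 over Baat held in 7 libraries and that of Baat over Abcb11 in 6. The libraries with Abcb11 ahead of Baat were G, H and I, all sgCcnd1; the group means of Baat and Abcb11 were 2239 and 1792 per kilobase in sgRosa26 and 2390.1 and 2394 in sgCcnd1. Nr1h4 (1124 ± 76.2) and Cyp7b1 (1059 ± 289) could not be ordered beyond their spread, with Nr1h4 ahead in 6 of 9. Nr0b2 (514 ± 275) and Cyp7a1 (453 ± 142), the gene of the rate-limiting enzyme, were the lowest, and Nr0b2 was ahead in 5 of 9.

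**Figure D1:**
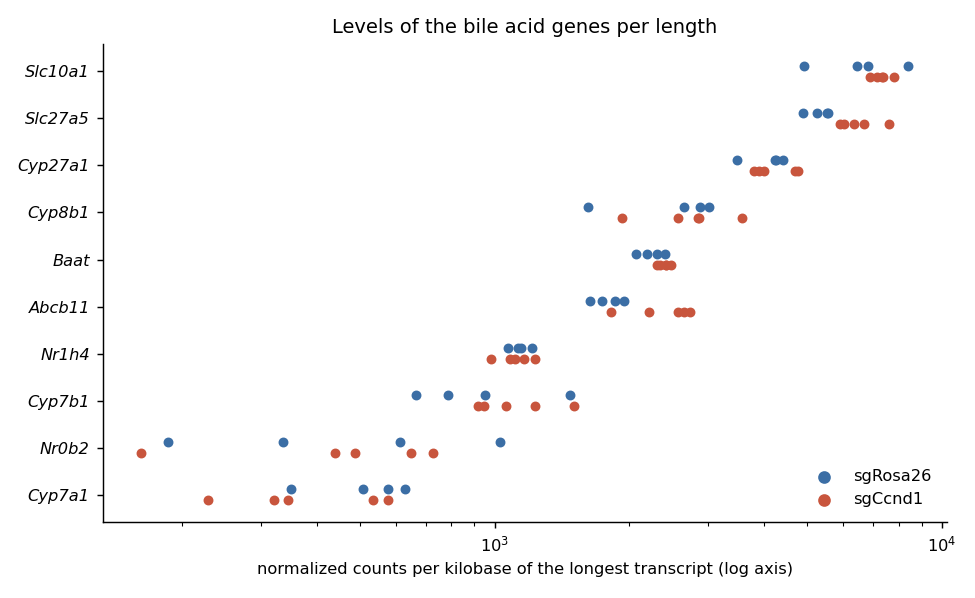
Levels of the 10 genes in each of the 9 libraries, in normalized counts per kilobase of the longest transcript on a log axis, with sgRosa26 in blue and sgCcnd1 in red. The genes run from Slc10a1, with a mean of 7016, down to Cyp7a1, with a mean of 453, and Nr0b2 has the widest row.

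The comparison between groups asked whether expression of the bile acid genes differed after hepatocyte editing of Ccnd1. By limma, 0 of the 10 were higher and 0 lower at an adjusted p under 0.05, where 0% of the 12993 genes tested were higher and 0.0077% lower. The count was also 0 by edgeR, which called 0% of all genes higher and 0.0077% lower, and by DESeq2, which called 0.262% higher and 0.539% lower, both on reads recovered from the table. At an unadjusted p under 0.05, Abcb11 and Slc27a5 were higher and 0 were lower with each of the 3 tools. Over all genes tested, limma had 5.22% higher and 5.74% lower at that level. The shares were 4.42% higher and 6.15% lower with edgeR and 4.71% higher and 5.49% lower with DESeq2. The median log2 fold change of the 10 was 0.11, with 7 above 0, and over all genes tested it was 0.01, with 52.9% above and 47.1% below 0. Of the 10, the groups did not overlap in Slc27a5 alone, as in 3.89% of all genes tested (1.92% higher and 1.97% lower).

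**Figure D2:**
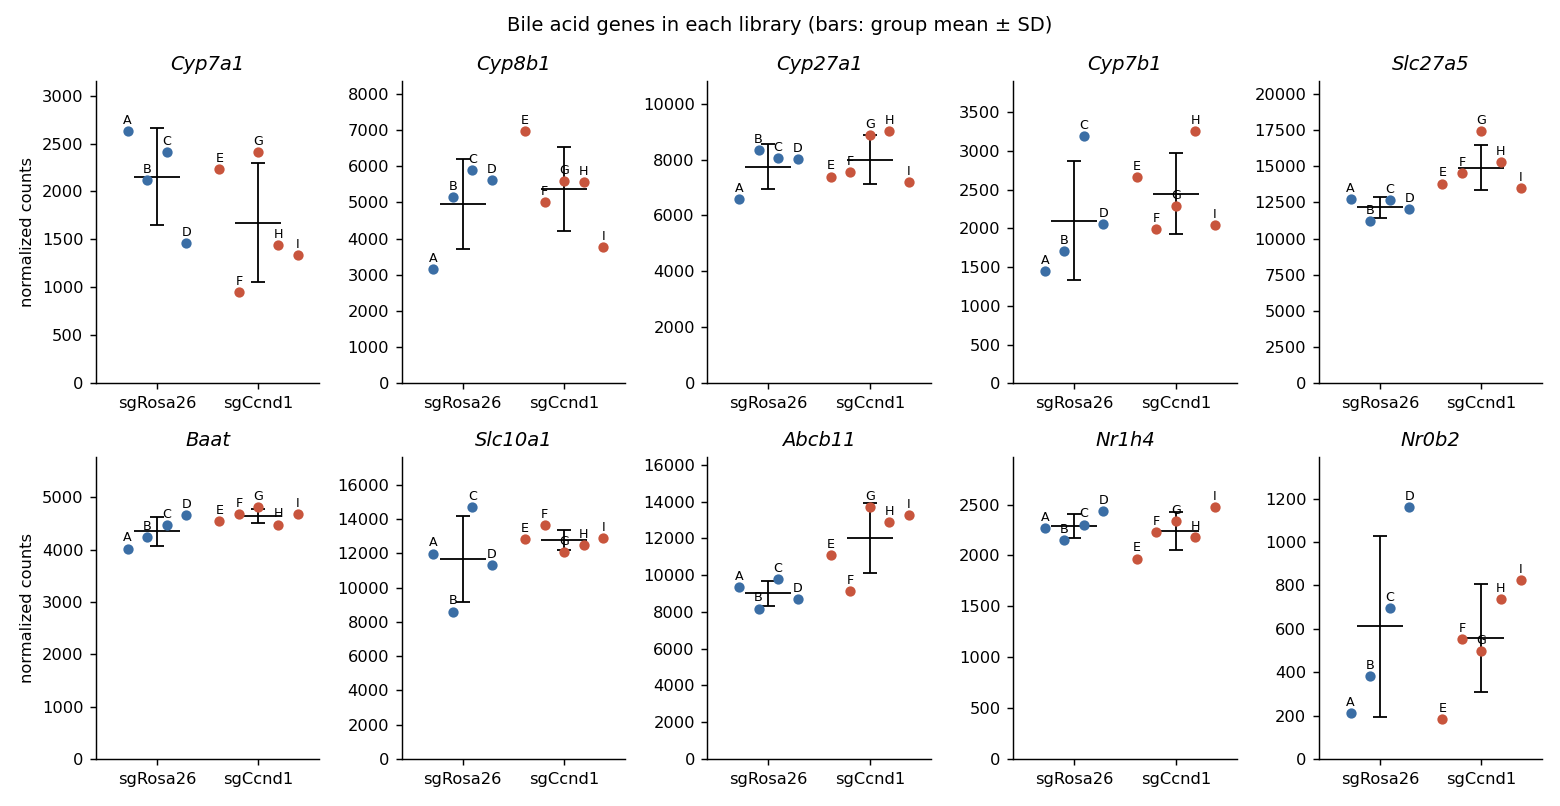
Normalized counts of the 10 genes in each library, with letters for libraries, sgRosa26 in blue and sgCcnd1 in red, and bars for the group mean ± SD; each axis starts at 0. Slc27a5 is the panel without overlap between groups, library F is the sgCcnd1 value within the controls for Abcb11, and Nr0b2 spreads from 183 to 1161.

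In the classic pathway, Cyp7a1 (Entrez 13122, chr4:6265612-6275633 on GRCm38) had 2626, 2119, 2412 and 1464 normalized counts in A to D and 2231, 953, 2412, 1441 and 1336 in E to I. In sgCcnd1, libraries F, H and I lay below the lowest control, while E and G lay among the controls. The means were 2155 ± 506 (SD, n = 4) and 1674 ± 621 (SD, n = 5), a fold of 0.751 with a 95% interval of 0.513 to 1.10 (limma adjusted p = 0.566; exact permutation p = 0.238). The interval thus reached from a much lower level of Cyp7a1 to one slightly above that of the controls. Library F, with the lowest value, weighed on the estimate: without it the log2 fold change was -0.23 instead of -0.41, and without D it was -0.59.

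Cyp8b1 (Entrez 13124, chr9:121914356-121916305) had 3154, 5153, 5887 and 5611 normalized counts in A to D and 6964, 5016, 5590.1, 5556 and 3762 in E to I. The lowest value was in control A and the highest in E, and the other 7 libraries of both groups overlapped between 3762 and 5887. The log2 fold change was 0.13 (95% interval -0.29 to 0.56, limma adjusted p = 0.838), and it turned to -0.07 without library A. Cyp7a1 and Cyp8b1 thus had estimates on different sides of 0, and neither interval excluded 0.

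In the alternative pathway, Cyp27a1 (Entrez 104086, chr1:74713574-74737892) was among the steadier genes. It had 6571, 8349.9, 8051 and 8023 normalized counts in A to D and 7388, 7557, 8871, 9006 and 7183 in E to I. The fold was 1.03 with a 95% interval of 0.881 to 1.21 (limma adjusted p = 0.908). Without library H the log2 fold change was 0.0014 instead of 0.05, and its sign turned in some alternative fits, which are listed with the limits of the processing.

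Cyp7b1 (Entrez 13123, chr3:18071950-18243338), an enzyme known for higher expression in male than in female mouse liver, had 1443.5, 1705, 3194 and 2059 normalized counts in A to D. It had 2661, 1991, 2291, 3254 and 2045 in E to I. Control C and sgCcnd1 library H, the one with almost no Y-linked reads, held the highest values. Sex is not labelled, and its part in these values was not tested. The log2 fold change was 0.26 (95% interval -0.19 to 0.71, limma adjusted p = 0.664). Without C it was 0.49 (limma adjusted p = 0.371), without A it was 0.10 and without H it was 0.15.

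Amidation was represented by both of its enzymes. Slc27a5 (Entrez 26459, chr7:12988346-12998192), the bile acid-CoA ligase, had 12700.0, 11178, 12676 and 12049 normalized counts in A to D and 13804, 14512, 17406, 15288 and 13504 in E to I. All 5 sgCcnd1 libraries lay above the highest control, with G farthest. The means were 12151 ± 715 (SD, n = 4) and 14903 ± 1559.6 (SD, n = 5), a fold of 1.22 with a 95% interval of 1.05 to 1.42. The unadjusted limma p was 0.0119 and the adjusted p 0.334 (exact permutation p = 0.0159), so the difference did not pass over all genes, and neither did it by edgeR (adjusted p = 0.351) or DESeq2 (0.119). The log2 fold change was 0.23 to 0.32 when single libraries were left out.

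Baat (Entrez 12012, chr4:49489422-49506557) was the steadiest of the 10. It had 4017, 4242, 4469 and 4657 normalized counts in A to D and 4550.4, 4680.2, 4812, 4478 and 4675 in E to I. Its spread within groups, an SD of 0.07 on the log2 scale, was wider than that of only 1.52% of all genes tested. The log2 fold change was 0.10 with a 95% interval of -0.07 to 0.26 (limma adjusted p = 0.660; 0.059 without A), and 3 of 5 sgCcnd1 libraries were above all controls.

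Of the 2 carriers, Abcb11 (Entrez 27413, chr2:69238282-69342616), whose upstream repeat is printed above, had 9335, 8183, 9793 and 8717 normalized counts in A to D. It had 11110.3, 9146, 13707, 12892 and 13288 in E to I. Libraries E, G, H and I lay above all controls and F lay among them. The means were 9007 ± 704 (SD, n = 4) and 12029 ± 1891 (SD, n = 5), a fold of 1.32, or 0.41 on the log2 scale with a 95% interval of 0.14 to 0.67. The unadjusted limma p was 0.00638, rank 277 of 12993, and the adjusted p was 0.297 (exact permutation p = 0.0397). It did not pass by edgeR (adjusted p = 0.295) or DESeq2 (0.0846) either. Leaving out single libraries gave log2 fold changes of 0.35 (without G) to 0.50 (without F) and limma adjusted p-values of 0.230 to 0.582.

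Slc10a1 (Entrez 20493, chr12:80953183-80968705), the sodium-dependent uptake carrier, had 11972, 8592, 14692 and 11299.6 normalized counts in A to D and 12813, 13627, 12069, 12491 and 12882 in E to I. Controls B and C held the lowest and the highest value of all 9 libraries, and the sgCcnd1 libraries fell between them. The fold was 1.12 with a 95% interval of 0.916 to 1.36 (limma adjusted p = 0.676). Without B the log2 fold change was 0.02 and without C it was 0.28. The coefficient of variation was 21.5% in sgRosa26 and 4.49% in sgCcnd1, and the difference in spread was not tested.

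The receptor and the repressor differed widely in spread. Nr1h4 (Entrez 20186, chr10:89454234-89533585) had 2272, 2154, 2303 and 2437 normalized counts in A to D and 1969, 2233, 2334, 2178 and 2475 in E to I. Library E was the lowest and I the highest, so that sgCcnd1 spanned the controls on both sides. The log2 fold change was -0.04 with a 95% interval of -0.22 to 0.14 (limma adjusted p = 0.904).

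Nr0b2 (Entrez 23957, chr4:133553376-133556536), printed above with its LRH-1 type cores, had 210.3, 380.4, 695 and 1161 normalized counts in A to D and 183, 551, 498, 735 and 823 in E to I. A and E held the lowest values of their groups, the groups overlapped over most of their range, and the highest value was 6.34 times the lowest over all libraries. Its SD within groups was 0.95 on the log2 scale, wider than that of 99.3% of all genes tested. The coefficient of variation was 68.3% in sgRosa26 and 44.4% in sgCcnd1. The fold between groups was 0.986 with a 95% interval of 0.475 to 2.05 (limma adjusted p = 0.993). Its sign depended on single libraries: the log2 fold change was 0.38 without D, 0.34 without E, 0.13 without C, -0.44 without A and -0.16 without H. Over all libraries it was -0.02 by limma, -0.16 by edgeR, -0.14 by DESeq2 and -0.20 by limma with array weights.

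Relations among the genes over the 9 animals were examined for 10 pairs that the pathway links, and 0 passed a Benjamini-Hochberg adjustment over the 10. Nr0b2 and Nr1h4 had the closest relation, a Pearson r of 0.72 (exact permutation p = 0.0269, adjusted p = 0.269) and a Spearman rho of 0.68 (exact permutation p = 0.0503, adjusted p = 0.402). After centring within groups r was 0.73 (exact permutation p = 0.0306, adjusted p = 0.306), but without libraries E and I, the farthest from the median of Nr1h4, it was 0.44 (exact permutation p = 0.323, n = 7). Nr0b2 and Cyp7a1, the repressor and its target, had an r of -0.56 (exact permutation p = 0.125, adjusted p = 0.417) and a rho of -0.57 (exact permutation p = 0.121, adjusted p = 0.402). Without A and E, which combined low Nr0b2 with high Cyp7a1, that r was -0.33, and after centring within groups it was -0.62 (exact permutation p = 0.0840, adjusted p = 0.420). Nr0b2 and Cyp8b1 had an r of 0.09 and a rho of -0.02 (exact permutation p = 0.827 and 0.982). Slc27a5 and Baat, enzymes of consecutive steps, had an r of 0.57 over all libraries (exact permutation p = 0.111, adjusted p = 0.417; rho 0.60, exact permutation p = 0.0968) and of 0.16 after centring within groups. The other 6 pairs had r from -0.25 to 0.40, with adjusted p-values of at least 0.796.

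**Figure D3:**
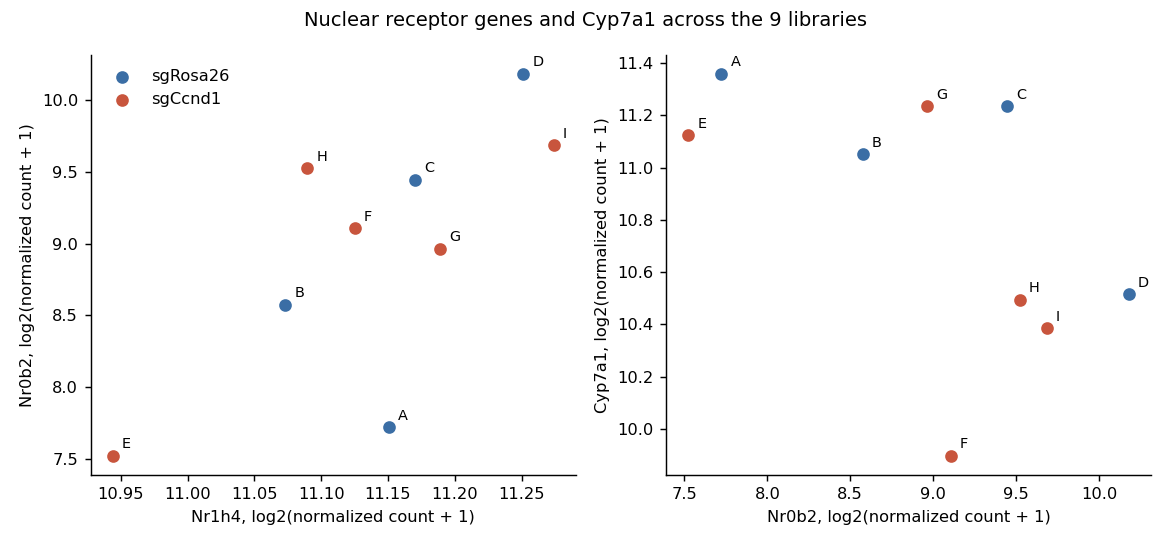
Nr0b2 against Nr1h4 (left) and Cyp7a1 against Nr0b2 (right) in the 9 libraries, as log2(normalized count + 1), with sgRosa26 in blue and sgCcnd1 in red. On the left E is low on both axes and D and I are high, with r = 0.72; on the right A and E hold high Cyp7a1 at the lowest Nr0b2, with r = -0.56.

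Further genes of the pathway were taken from 3 lists of 39 genes in all. None passed in limma at an adjusted p under 0.05, in edgeR or in DESeq2, and at an unadjusted limma p under 0.05 there were 5 higher and 0 lower, where 5.22% and 5.74% of all genes tested were. Among 14 other synthesis enzymes, 13 were tested, 3 were higher at an unadjusted p under 0.05, against 5.22% of all genes tested, and the median log2 fold change was 0.10, against 0.01 over all genes. Hsd17b4, a peroxisomal enzyme of side chain shortening, stood at 4854 ± 603 normalized counts in sgRosa26 and at 6091 ± 573 in sgCcnd1 (limma adjusted p = 0.306), with 4 of 5 libraries above all controls. Cyp46a1, a cholesterol 24-hydroxylase known mainly from brain, was low in these livers at 79.6 ± 6.40 and 113 ± 22.6 normalized counts (limma adjusted p = 0.307), and its groups did not overlap, although E at 88.4 was close to control C at 88.2 (1.92% of all genes tested were higher without overlap). Cyp39a1, which hydroxylates 24-hydroxycholesterol, stood at 290.5 ± 43.6 and 407 ± 98.6 (limma adjusted p = 0.334). Abcd3, which brings bile acid intermediates into peroxisomes, stood at 8267 ± 1652 and 9878 ± 873 (limma adjusted p = 0.484), and its log2 fold change was 0.28 over all libraries and 0.12 without A, its lowest.

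Among 12 other transporters, 10 were tested and 1 was higher at an unadjusted p under 0.05, against 5.22% of all genes tested, with a median log2 fold change of 0.08. That gene was Slco1b2, a sodium-independent uptake carrier, at 12890.3 ± 1307 normalized counts in sgRosa26 and 15300.5 ± 1533 in sgCcnd1 (limma adjusted p = 0.426, 3 of 5 libraries above all controls). Its relatives had estimates on different sides of 0, with log2 fold changes of 0.34 for Slco1a1 (limma adjusted p = 0.625) and -0.44 for Slco1a4 (0.528). Slco1a1 was at 0.09 without A, 0.22 without E and 0.55 without C, and Slco1a4 at -0.28 without A and -0.31 without H. Atp8b1, a flippase of the canalicular membrane, was at 0.15 (limma adjusted p = 0.732), and at 0.0099 without B, 0.096 without D and 0.30 without A. Slc51a, part of the basolateral exporter, had 0 reads in all 9 libraries, which allows up to 4.26 normalized counts (3 reads) in the shallowest one, for counting error only. Its partner Slc51b was detected at 3.81 to 15.0 normalized counts, below the minimum for testing.

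Among 13 other regulators, 10 were tested and 1 was higher at an unadjusted p under 0.05, against 5.22% of all genes tested, with a median log2 fold change of 0.03. Rxra, the partner of FXR, stood at 5337 ± 653 and 6250.3 ± 617 normalized counts (limma adjusted p = 0.448). Klb, the co-receptor through which intestinal FGF15 acts with FGFR4 on the hepatocyte, had an estimate of 0.28 on the log2 scale (limma adjusted p = 0.482; 0.14 without B). Hnf4a was at 0.14 (limma adjusted p = 0.621) and Nr1i3, the receptor CAR, at -0.27 (0.660). Without B Hnf4a was at 0.085, and Nr1i3 was at -0.10 without D, -0.17 without F and -0.42 without G. Fgf15 and the bile acid receptor gene Gpbar1 had 0 reads in all 9 libraries, with the same upper limit as for Slc51a.

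**Figure D4:**
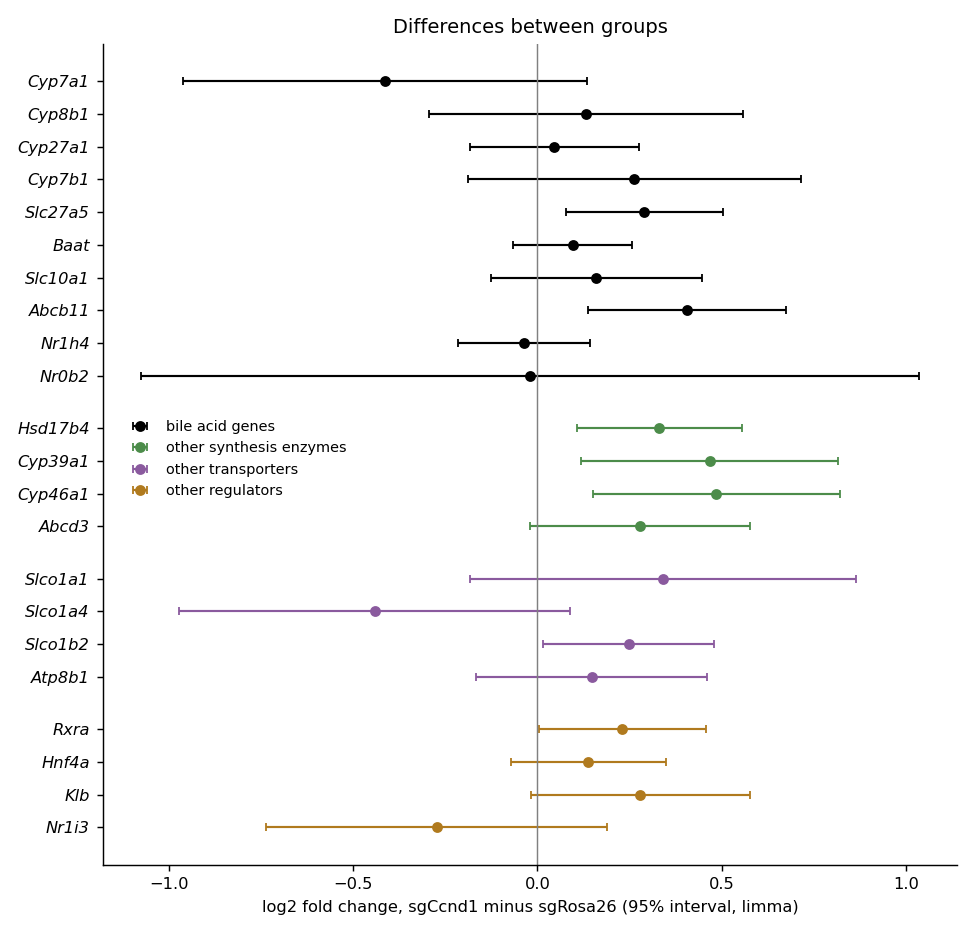
Log2 fold changes of sgCcnd1 against sgRosa26 with 95% intervals from limma for the 10 bile acid genes and the 4 genes with the smallest p in each of the 3 pathway lists. Abcb11 (0.41) and Slc27a5 (0.29) are the intervals above 0 among the 10 genes, and Nr0b2 has the widest interval.

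Because bulk tissue was sequenced, fewer cells of a type and less RNA per cell cannot be told apart. Hepatocyte markers, 7 of 7 with reads in all libraries, summed to 1966956 to 2351416 normalized counts in sgRosa26 and 1857914 to 2348482 in sgCcnd1. Cholangiocyte markers (6 of 7 with reads in all libraries) summed to 1368 to 2287 in sgRosa26 and 1074 to 1481 in sgCcnd1, and stellate cell markers to 3581 to 5466 and 3210.2 to 4658. Lymphocyte markers had estimates below 0 in 6 of 6 genes, against 47.1% of all genes tested, with sums of 113 to 224 and 59.6 to 208 (difference of the mean log2 level -0.84, exact permutation p = 0.0794), and 0 passed the adjustment in limma. Kupffer cell and sinusoidal endothelial marker sums had overlapping ranges, 1661 to 2572 against 1738 to 2153 and 1915 to 2948 against 2190 to 3123, with E above all controls in the latter. Of the Kupffer cell markers, Marco was at 40.6 to 119 in the controls and at 9.15, 73.4, 125, 376 and 72.4 in E to I. Intestinal markers, 3 of 6 with reads in all libraries, summed to 588 to 1723 in sgRosa26 and 1072 to 1404 in sgCcnd1, mostly from Fabp2 and Slc10a2. Cdx1 had 0 reads in all libraries, Cdx2 reads only in A, and Alpi reads only in E and F. The part of these cell types in the values above was not tested.

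Genes of the circadian clock were read as lists, since several bile acid genes are known to cycle over the day. The mean log2 level of 6 genes that peak with Dbp minus that of 5 that peak with Bmal1, called the clock contrast here, was 0.21, -0.57, 0.68 and 0.03 in A to D. It was 0.43, 1.49, 1.09, 0.99 and 1.59 in E to I, so that 4 of 5 sgCcnd1 libraries were above all controls (mean difference 1.03, exact permutation p = 0.0238, not adjusted for the 11 lists read). No clock gene of these lists passed the adjustment in limma, while 6 of 6 genes of the Dbp list had estimates above 0 and 4 of 5 of the Bmal1 list below 0, where 52.9% and 47.1% of all genes tested did. The labels give no harvest time. The relation of each of the 10 genes to this contrast was computed after the values had been seen, and 0 of 10 passed the adjustment. Slc10a1 had an r of 0.73 (exact permutation p = 0.0198, adjusted p = 0.154) and a rho of 0.72 (exact permutation p = 0.0369, adjusted p = 0.126), and r was 0.74 after centring within groups but 0.48 without B and I. Slc27a5 had an r of 0.71 (exact permutation p = 0.0309, adjusted p = 0.154; rho 0.72, exact permutation p = 0.0369) and Abcb11 an r of 0.68 (exact permutation p = 0.0494, adjusted p = 0.165; rho 0.70, exact permutation p = 0.0433). Within groups these were 0.26 and 0.23, and without B and I they were 0.73 and 0.40. Nr1h4 had an r of 0.30 over all libraries, 0.72 within groups (exact permutation p = 0.0399, adjusted p = 0.1997) and -0.12 without B and I. The part of the clock in the differences of Slc27a5 and Abcb11 was not tested.

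**Figure D5:**
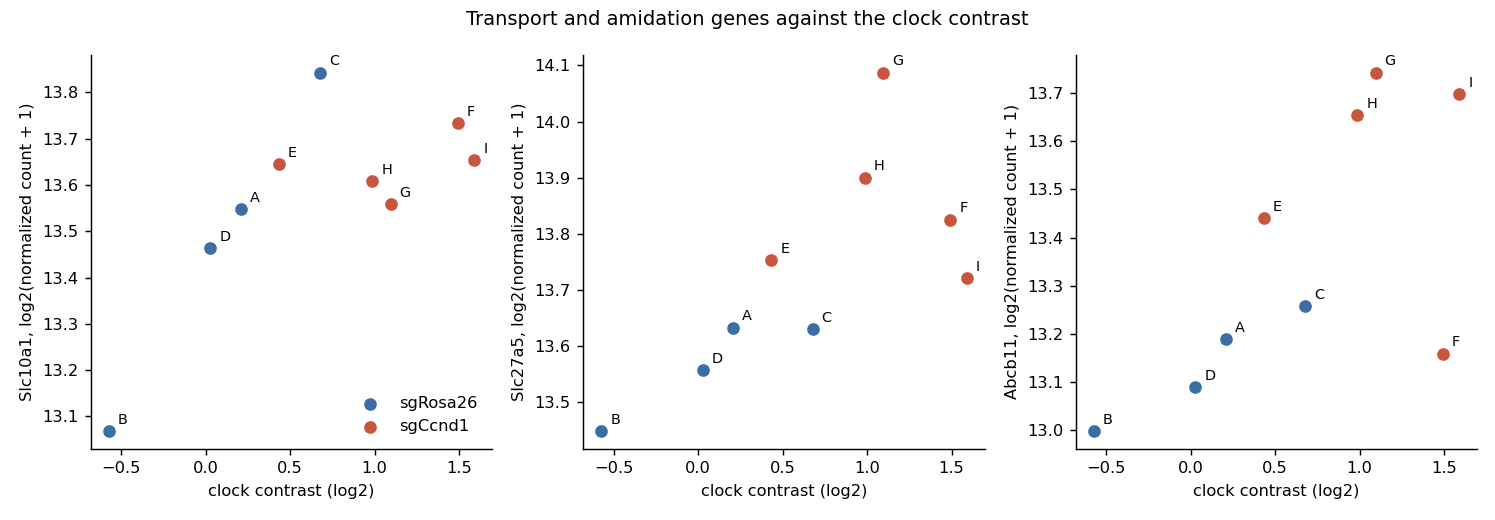
Slc10a1, Slc27a5 and Abcb11, as log2(normalized count + 1), against the clock contrast in the 9 libraries, with sgRosa26 in blue and sgCcnd1 in red. Most sgCcnd1 libraries lie to the right of the controls; control B is lowest on both axes in each panel, and F is low for Abcb11 at a contrast of 1.49.

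Acute-phase genes and fasting-induced genes were read as lists too. The mean log2 level of 8 acute-phase genes was 11.42 in sgRosa26 and 11.43 in sgCcnd1 (exact permutation p = 0.976), with the highest values in A (12.04) and G (12.10). Library A had the lowest Cyp8b1, Cyp7b1, Cyp27a1 and Baat of all 9 libraries, and G had the highest Slc27a5, Baat and Abcb11. A and G also held the highest Cyp7a1, with C level with G. The mean of 7 fasting-induced genes was 10.22 in sgRosa26 and 10.46 in sgCcnd1 (exact permutation p = 0.151), lowest in A (9.89) and highest in G (10.71). Their part in the values of the bile acid genes was not tested.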

How the data were processed

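RNA-seq of 9 livers was used as 1 table of normalized counts, a never-negative signal deposited by the authors. The submitters' processing notes name Trim Galore 0.6.7, HISAT2 2.2.1, featureCounts 2.0.3, DESeq2 2.11.40.8 and the builds mm10 and GRCm38; the use of strand is not given in the sources used here. Columns were matched to groups by guide name. In every library 100% of the values were whole multiples (within 0.05 reads) of 1 number, which gave reads back. Whether the animals came from separate litters is not labelled, so p-values measure the spread between these samples.

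The test was limma 3.58.1 (R 4.3.3; lmFit, eBayes with trend) on log2(normalized count + 1) for 12993 genes with a mean of at least 10, two-sided, Benjamini-Hochberg adjusted over all of them at 0.05; fold changes on this scale understate changes of low genes. Exact permutation tests were two-sided over 126 splits (smallest p 0.00794) or over all pairings. edgeR 4.0.16 (quasi-likelihood, TMM or RLE) and DESeq2 1.42.0 (254 adjusted p undefined) were run on the recovered reads. In simulated counts for this comparison limma recovered 79% of genes changed 2-fold and 40% of those changed 1.5-fold, over 12993 genes. It called 128 genes there and 1 in these data, so the adjusted threshold was easier to pass in the simulation. Recovery at the stricter cutoff of these data and of changes below 1.5-fold was not simulated. Other pseudocounts, filters, scalings, weights and each library left out were alternatives. Gene models came from GENCODE M21 (GRCm38), promoters from RefSeq (GRCm38.p6). The named pathway genes are the 4 with the smallest limma p per list; beside each bile acid gene, the 1 other gene with the highest Pearson r to it is named. The genes and lists were chosen with earlier results of these data known. Figures used matplotlib 3.10.9.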

Additional observations from a re-analysis of the deposited data

How the results depend on the processing

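No paired analysis was possible because the animal numbers in the column names match no label. The comparison was run under 20 other settings, edgeR and DESeq2 among them, and these count models also without library H, which was added after the data were seen. The number of bile acid genes past the threshold was 0 under all 22, and so was that of the pathway lists. Abcb11, Slc27a5, Baat, Slc10a1, Cyp7a1 and Cyp7b1 kept their direction in all of them. Cyp27a1 reversed to -0.059 with quantile normalization, -0.031 without A, -0.010 with edgeR without H and -0.0056 with DESeq2 without H. Cyp8b1 reversed to -0.071 without A, Nr1h4 to 0.0082 without E, and Nr0b2 to 0.13, 0.38 and 0.34 without C, D and E. Leaving out single libraries moved Cyp8b1 between -0.071 and 0.25, Cyp27a1 between -0.031 and 0.084, Nr1h4 between -0.074 and 0.0082 and Nr0b2 between -0.44 and 0.38. Quantile normalization lowered further estimates by over 1.5 times, to 0.0099 for Baat, 0.036 for Cyp8b1, 0.084 for Slc10a1, 0.025 for Hnf4a, 0.097 for Atp8b1, 0.13 for Rxra, 0.15 for Slco1b2 and 0.18 for Abcd3, and moved Nr1h4 to -0.11. Cyp7b1 was 0.088 with edgeR and 0.093 with DESeq2 without H. Ccnd1 ranged from -1.11 to -0.96 there, where omitting B, D, F, H or I each left its limma adjusted p past 0.05, and edgeR without H gave -1.02 (adjusted p = 0.0560). Over all genes, 0 were higher and 1 lower; DESeq2 gave 34 higher and 70 lower, DESeq2 without H 16 and 25, edgeR without H 0 lower, quantile normalization 2 lower, and single libraries left out 0 to 2 lower. The share lower at an unadjusted p, 52.4%, was 62.6% with 75th percentile scaling and 37.5% with a minimum mean of 100. Among relations, and without the 2 libraries farthest from the median, Nr0b2 with Cyp8b1 turned to r = -0.073, Nr1h4 with Cyp7a1 to 0.10, and Cyp7a1 with Cyp8b1 to -0.32. The clock contrast turned to 0.17 with Cyp8b1, 0.43 with Cyp27a1 and -0.12 with Nr1h4. Cyp7a1 with Cyp7b1 was -0.04 and turned to 0.14 after centring within groups. The cause of these shifts was not tested. Depth limits little here, since each bile acid gene had at least 171 reads in every library.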

Other observations

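For each bile acid gene, the gene whose log2 values followed it most closely over the 9 libraries was looked up among 10341 others whose mean was 50 normalized counts or more. Each is the highest of that many, over 9 points that share their libraries and size factors, and is a description only. Abcb11 was nearest to Ints8 (Pearson r = 0.97) and had 51 genes above an r of 0.9, the most of the 10. Nr0b2 was nearest to Azgp1 (0.96), Cyp27a1 to Hacd1 (0.96), Baat to Rab9 (0.95), Cyp7b1 to Tmem30a and Slc10a1 to Nup205 (both 0.94), Slc27a5 to Tm9sf2 (0.94), Cyp7a1 to Klc1 (0.93) and Cyp8b1 to Kif5a (0.92). Nr1h4 had only 2 genes above 0.9, and its nearest was Abcg5 (0.90), which encodes part of a canalicular sterol exporter and is in the transporter list. Of the 46 sets of values examined for a library far from the others (10 bile acid genes, Ccnd1 and 12 pathway genes in each group), 0 had one, where chance gives about 2.3.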
